A study of Arabidopsis thaliana with 96 samples.

Results

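SWEET1, SWEET4, SWEET11 and SWEET14 are 4 Arabidopsis genes for sugar transporters of the SWEET family, and their transcripts were followed here in the sorted cells of salt-treated roots. They were chosen with earlier results of these data known. Each has a probe set that the array annotation pairs with exactly 1 gene, which holds for 13356 genes in all. Their gene codes are AT1G21460 (SWEET1), AT3G28007 (SWEET4), AT3G48740 (SWEET11) and AT4G25010 (SWEET14), and each is read by 1 probe set. The family list used here has 17 SWEET genes, of which 16 have a single-gene probe set and 9 were bright enough to be tested, the 4 members among them. RNA was measured on 96 single-colour Affymetrix ATH1 arrays, 24 for each of 4 cell types. Seedlings of the Columbia ecotype, with roots taken 5 to 7 days after germination on medium with 1% sucrose, carried a green fluorescent protein (GFP) reporter. Roots were digested to protoplasts and fluorescent cells were sorted, with WER::GFP for the epidermis, COR::GFP for the cortex, SCR::GFP for the endodermis and WOL::GFP for the stele, the vascular core. Each cell type had 3 arrays from medium with 140 mM NaCl at each of 1, 3, 8, 20, 32 and 48 h, and 3 arrays from standard medium at each of 1 and 48 h. Since each cell type has a line of its own, effects of the line or its sort and effects of the cell type cannot be told apart. All groups went through digestion and sorting. Nothing in the labels says whether replicates came from separate cultures, so p-values measure the spread between these arrays, which may be technical.

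SWEET proteins are membrane carriers that let sugars pass down their concentration gradient, into or out of a cell or the vacuole. SWEET1 and SWEET4 carry hexoses such as glucose, while SWEET11 and SWEET14 belong to the group that carries sucrose. SWEET11 is known from leaves, where it lets sucrose out of phloem parenchyma cells before the phloem is loaded, and roots receive their sucrose through the phloem of the stele.

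The values are log2 expression values made by the authors with GCRMA, a method that corrects background by probe sequence, and they have no detection calls. Array medians over all probe sets lay between 4.51 and 4.97. Tests covered the 7281 genes that had a group mean of 5 or more (log2) in at least 1 of the 32 groups. Of the marker genes listed for the sorted cell types, 7 have a single-gene probe set, and none of the lists for epidermis, phloem or xylem has one. In standard medium the cortex marker AT1G09750 was brightest in cortex arrays (6.21 to 8.47), with endodermis next (5.27 to 6.17). The endodermal kinase gene GSO1 was brightest in endodermis arrays (10.2 to 10.4), with 8.34 to 9.07 in cortex and 8.05 to 9.84 in stele. LHW, the marker listed for the stele, read 3.77 to 5.50 over all 4 types, the cortex marker AT1G62500 stayed between 2.78 and 3.27, and the root hair gene EXPA7 read 9.38 to 10.4 in stele arrays. The cortex marker AT1G62510 overlapped between cortex (10.1 to 10.6) and endodermis (9.10 to 10.1) and was bright in stele (7.67 to 8.86). In epidermis arrays EXPA7 read 6.35 to 10.5, which overlaps with the stele. The stele and epidermis labels therefore have no positive marker among the genes measured. Of all arrays, stele standard 1 h replicate 3 and epidermis standard 48 h replicates 1 and 3 correlated with their group at a mean of 0.93 to 0.94, below 0.95. Results that change without these 3 arrays are named below. In such bulk samples, fewer cells of a type and less RNA per cell cannot be told apart.

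The members passed the brightness filter in different ways. SWEET1 had a mean of at least 5 in 19 of 32 groups and SWEET11 in 20. SWEET4 reached it in only 2 groups, stele at 1 h and 3 h of salt, and SWEET14 in only 1, stele at 8 h of salt. SWEET4 and SWEET14 were thus tested only because salt stele arrays were bright, so their calls there are given as a description.

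**Figure D1:**
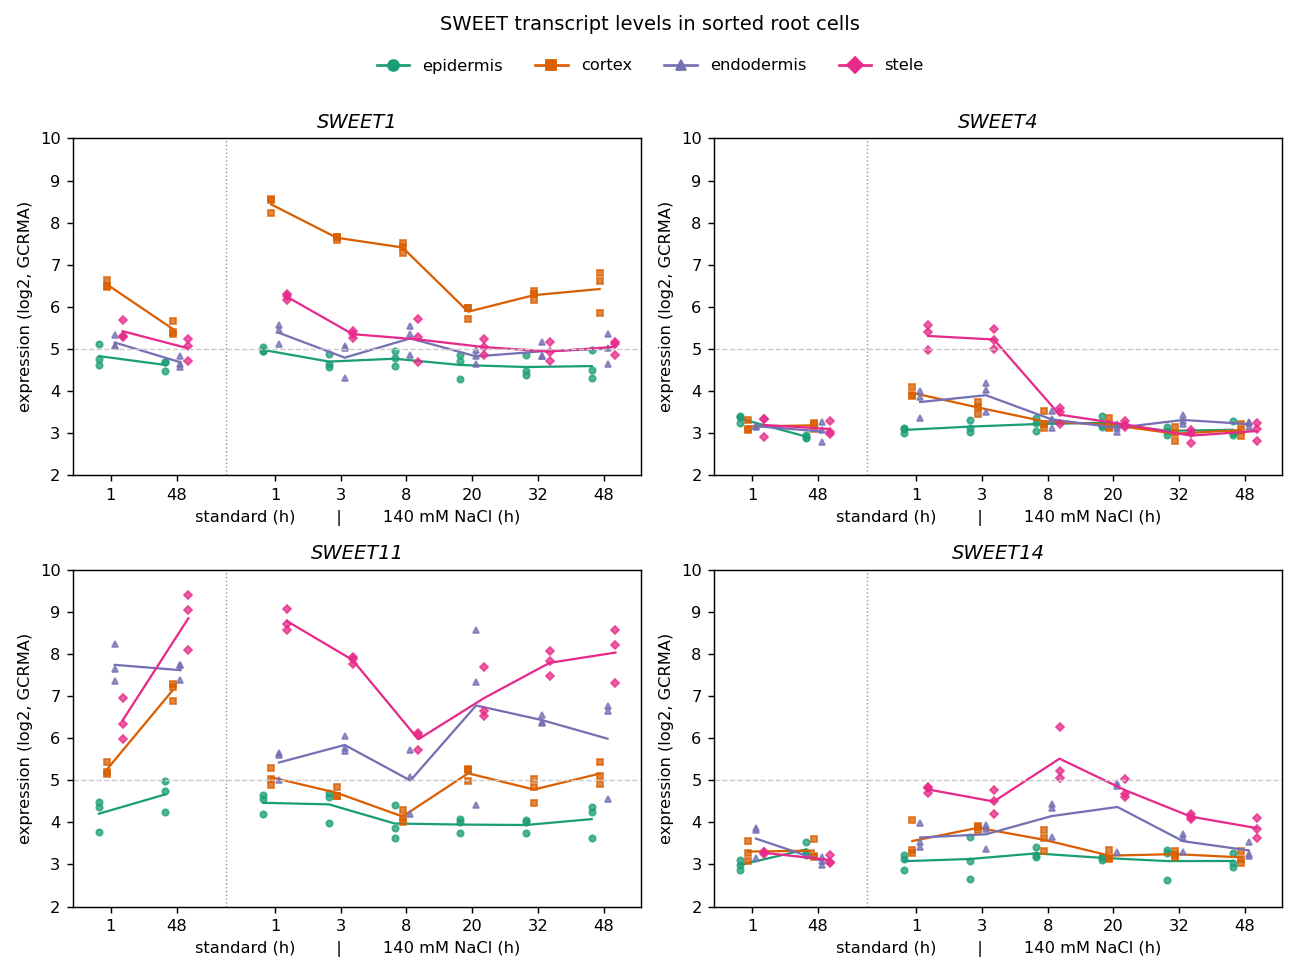
Log2 GCRMA expression (vertical axis) of each SWEET gene by time in standard medium and in 140 mM NaCl (horizontal axis, in hours). Points are single arrays, lines join group means of 3 arrays, colours and shapes mark the cell types, and the dashed line at 5 is the filter level. SWEET1 stands out in the cortex and SWEET4 and SWEET14 in salt stele, while SWEET11 differs between the standard times in cortex and stele.

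In standard medium SWEET1 and SWEET11 differed between cell types and the other members did not pass the test. For each standard time, every pair of cell types was compared, and a difference was called at a Benjamini-Hochberg adjusted p under 0.05 (limma, over all 7281 genes) and at least 1 on the log2 scale. Of 48 member comparisons 14 were called, where 15.2% of all gene comparisons of this kind were. At 1 h, 3 of the calls were for SWEET1 and 6 for SWEET11, and at 48 h all 5 were for SWEET11.

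SWEET1, a glucose carrier of the plasma membrane, was highest in the cortex at standard 1 h. It measured 6.64, 6.49 and 6.48 in cortex arrays, against 4.76, 4.62 and 5.12 in epidermis, 5.06, 5.06 and 5.33 in endodermis and 5.68, 5.27 and 5.31 in stele. The cortex arrays lay above those of all other types. The cortex exceeded the epidermis by 1.70 (SE 0.20, adjusted p = 2.5e-11), while the endodermis was below the cortex (-1.38, adjusted p = 3.59e-08) and so was the stele (-1.11, adjusted p = 4.36e-06). The other 3 types did not differ past the threshold. At standard 48 h the order of the means was again cortex 5.48 ± 0.16, stele 5.02 ± 0.27, endodermis 4.69 ± 0.13 and epidermis 4.62 ± 0.12 (SD, n = 3), and no pair was called.

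SWEET11 changed its order of cell types between the standard times. At standard 1 h it averaged 7.74 ± 0.45 in endodermis, 6.42 ± 0.50 in stele, 5.25 ± 0.15 in cortex and 4.21 ± 0.39 in epidermis (SD, n = 3), and all 6 pairs were called. At standard 48 h it averaged 8.84 ± 0.67 in stele, 7.61 ± 0.21 in endodermis, 7.13 ± 0.21 in cortex and 4.66 ± 0.38 in epidermis. There the endodermis and cortex did not differ past the threshold, and the other 5 pairs did. The epidermis was lowest at both times, and the stele exceeded it by 4.19 at 48 h (adjusted p = 9.47e-13) and the endodermis by 3.53 at 1 h (adjusted p = 1.92e-10). Several closer pairs lost their call without single arrays. The excess of stele over endodermis at 48 h (1.23, adjusted p = 0.0214) was 0.96 (adjusted p = 0.132) without stele standard 48 h replicate 1. That of endodermis over stele at 1 h was not called without endodermis standard 1 h replicate 1 (stele minus endodermis -1.07, adjusted p = 0.0968), against -1.32 (adjusted p = 0.0156) with all arrays. Stele over cortex at 1 h (1.17, adjusted p = 0.0304) was 0.90 (adjusted p = 0.158) without the 3 poorly agreeing arrays. The call of cortex over epidermis at 1 h (1.05, adjusted p = 0.0461) was lost without any 1 of 5 arrays. The difference was 0.83 (adjusted p = 0.184) without epidermis standard 1 h replicate 2 and 0.96 without cortex replicate 1. It was larger, at 1.13, 1.11 and 1.08, without epidermis replicate 1 and cortex replicates 2 and 3. After quantile normalization it was 0.89 (adjusted p = 0.0847).

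SWEET4 and SWEET14 were low in every cell type in standard medium. SWEET4, a carrier of glucose and fructose, lay between 2.79 and 3.42 over the standard arrays of all 4 types, and SWEET14 between 2.87 and 3.87. No pair of cell types was called for either at either time, and values this low on the GCRMA scale have no known distance from background.

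SWEET11 and SWEET1 also differed between the standard groups. The labels do not say whether the 1 h and 48 h groups share a day, culture or sort, so time and batch cannot be told apart. Of 16 member comparisons of standard 48 h with standard 1 h, 3 were called, where 3.20% of all gene comparisons were. SWEET11 measured 7.29, 7.21 and 6.89 in cortex at standard 48 h, against 5.42, 5.14 and 5.20 at standard 1 h. In the stele it measured 9.39, 8.10 and 9.04 at 48 h, against 5.97, 6.33 and 6.96 at 1 h. All 48 h arrays lay above all 1 h arrays in both types. The difference was 1.88 in the cortex (SE 0.44, 3.68-fold, adjusted p = 0.00239), where 1.18% of genes were called higher, and 2.42 in the stele (SE 0.44, 5.36-fold, adjusted p = 2.12e-05), where 3.36% were. In the endodermis SWEET11 measured 7.37, 7.74 and 7.73 at 48 h, against 8.23, 7.35 and 7.65 at 1 h, and in the epidermis 4.75, 4.24 and 4.99, against 4.38, 3.76 and 4.48. Of the 6 tested markers, the cortex marker AT1G09750 was lower at 48 h in the cortex (-1.89, adjusted p = 7.88e-12) and the endodermis marker GSO1 in the stele (-1.08, adjusted p = 0.000279). The root hair gene EXPA7 was lower in the epidermis (-1.74, adjusted p = 0.0108). EXPA18 was lower in the epidermis (-1.96, adjusted p = 0.004) and the endodermis (-1.45, adjusted p = 0.0319). The part of these markers in the SWEET11 difference was not tested. For SWEET11 the groups overlapped in the endodermis and epidermis, with differences of -0.13 and 0.45 that did not pass the test. The change itself differed among the cell types, with a range of 2.55 (moderated F test, adjusted p = 0.00572), a test added after these values were seen, in which 8.93% of genes were called. SWEET1 was lower at 48 h in the cortex, at 5.41, 5.36 and 5.66, against 6.64, 6.49 and 6.48 at 1 h, a difference of -1.06 (SE 0.20, adjusted p = 0.000103) without overlap. Of all genes 1.18% were called lower there, and the SWEET1 difference came to -0.997 (adjusted p = 0.00196) without cortex standard 48 h replicate 2 and -0.990 after quantile normalization, under the threshold of 1 in both cases.

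The salt comparisons set each of 6 times in NaCl against the mean of both standard groups of the same cell type, since standard medium has no group at 3, 8, 20 or 32 h. All 6 times of a cell type are thus set against the same 6 standard arrays. Of 96 member comparisons 24 were called (25.0%), 12 higher and 12 lower in salt, where 19.0% of all gene comparisons were called. Of the 12 higher calls, 7 were for SWEET4 and SWEET14, which were tested only through salt stele groups, and with a filter at a group mean of 6, which neither passes, 17 calls were left. The median salt change of the members was 0.025 on the log2 scale, against 0.071 over all tested genes. SWEET1, SWEET4 and SWEET14 were called higher only, SWEET11 was lower in 12 of 24 comparisons and higher in 1, and no member was called in the epidermis at any of the 6 times. Over all 24 epidermis arrays SWEET1 stayed between 4.28 and 5.12, SWEET4 between 2.90 and 3.42, SWEET11 between 3.63 and 4.99 and SWEET14 between 2.63 and 3.65.

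SWEET1 rose early in the cortex. It measured 8.53, 8.22 and 8.55 at 1 h of salt, 7.59, 7.67 and 7.67 at 3 h, and 7.29, 7.43 and 7.52 at 8 h. The standard arrays were at 6.64, 6.49 and 6.48 (1 h) and at 5.41, 5.36 and 5.66 (48 h), so all salt arrays to 8 h lay above all 6 standard arrays. The change was 2.43 at 1 h (SE 0.17, 5.38-fold, adjusted p = 8.36e-20), 1.63 at 3 h (3.11-fold, adjusted p = 5.76e-12) and 1.40 at 8 h (2.65-fold, adjusted p = 1.44e-10). At these times 3.31%, 4.04% and 7.76% of all genes were called higher in the cortex. At 20, 32 and 48 h SWEET1 averaged 5.89 ± 0.16, 6.28 ± 0.10 and 6.42 ± 0.50 in the salt cortex (SD, n = 3), between the standard group means of 6.54 ± 0.09 (1 h) and 5.48 ± 0.16 (48 h), and it was not called. Against standard 1 h alone the 8 h change was 0.88 (adjusted p = 0.000164), under the threshold. In the stele SWEET1 measured 6.26, 6.16 and 6.31 at 1 h of salt, against 5.68, 5.27 and 5.31 at standard 1 h and 4.72, 5.24 and 5.08 at standard 48 h. These salt arrays lay above all 6 standard arrays, by 1.02 (SE 0.17, adjusted p = 8.12e-07), with 4.22% of genes called higher. That value was close to the threshold. It was 0.82 against standard 1 h alone, 0.987 after quantile normalization and 0.982 after median centring. It lay between 0.95 and 0.995 without standard 1 h replicate 2 or 3, standard 48 h replicate 1 or salt 1 h replicate 3, and at 0.995 without the 3 poorly agreeing arrays.

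SWEET4 was bright only in the stele and only in the first hours of salt. It measured 5.40, 4.97 and 5.56 at 1 h and 5.47, 4.99 and 5.22 at 3 h of salt, against 3.34, 3.34 and 2.91 at standard 1 h and 3.02, 2.99 and 3.29 at standard 48 h. At 8, 20, 32 and 48 h of salt its stele arrays lay between 2.76 and 3.61. The 6 early salt arrays stood apart from all other stele arrays by more than 1 log2 unit. The difference was 2.16 at 1 h and 2.08 at 3 h on the log2 scale (SE 0.13 each), where 4.22% and 7.36% of genes were called higher. These are the 2 groups through which SWEET4 came to be tested, and its standard arrays may lie at background, so the values describe these arrays and give no fold. Smaller differences were seen elsewhere. SWEET4 measured 3.91, 3.88 and 4.09 in the cortex at 1 h of salt and 3.50, 4.19 and 4.02 in the endodermis at 3 h, its highest group means outside the stele, and both stayed under the threshold of 1.

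SWEET14, known with SWEET13 for carrying sucrose and the hormone gibberellin, was higher in the stele through 20 h of salt. Its stele arrays read 4.81, 4.84 and 4.69 at 1 h, 4.50, 4.78 and 4.20 at 3 h, and 6.27, 5.22 and 5.05 at 8 h. They read 4.67, 5.02 and 4.59 at 20 h, 4.08, 4.19 and 4.14 at 32 h, and 4.11, 3.63 and 3.85 at 48 h, against 3.25, 3.30 and 3.29 at standard 1 h and 3.23, 3.04 and 3.06 at standard 48 h. Every salt stele array thus lay above every standard stele array. The change was 1.59 at 1 h, 1.30 at 3 h, 2.32 at 8 h and 1.57 at 20 h (SE 0.21 each), and 0.94 at 32 h and 0.67 at 48 h, under the threshold. SWEET14 came to be tested only through the 8 h salt stele arrays, so all its salt stele changes are a description. At 8 and 20 h, 7.16% and 5.04% of genes were called higher. Most of this movement lies below 5. With values under 4 set to 4, the change at 8 h stayed above 1, and those at 1, 3 and 20 h became 0.78, 0.49 and 0.76. In the endodermis SWEET14 measured 4.93, 4.87 and 3.29 at 20 h, against 3.15, 3.82 and 3.87 at standard 1 h and 2.99, 3.18 and 3.09 at standard 48 h. Here 2 salt arrays lay above the standard arrays and replicate 3 among them. All endodermis means of SWEET14 were at most 4.37, under the filter level, so its change there is a description too. The change of 1.01 (SE 0.21, adjusted p = 3.35e-05, with 13.0% of genes called higher) was 0.73 without salt replicate 1, 0.76 without replicate 2 and 1.55 without replicate 3. It was 0.90 and 0.99 without replicate 1 of standard 1 h and of standard 48 h, and 0.94 and 0.84 after quantile normalization and median centring, all under the threshold.

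SWEET11 was lower in the salt endodermis at 5 of 6 times against standard medium of either duration. It measured 5.02, 5.59 and 5.65 at 1 h of salt, 5.70, 6.05 and 5.76 at 3 h, and 5.72, 5.07 and 4.19 at 8 h. It measured 7.34, 8.57 and 4.41 at 20 h, 6.55, 6.36 and 6.38 at 32 h, and 4.56, 6.64 and 6.77 at 48 h, against 8.23, 7.35 and 7.65 at standard 1 h and 7.37, 7.74 and 7.73 at standard 48 h. All salt arrays lay below all standard arrays except at 20 h, where replicate 2 was the highest of the endodermis arrays and replicate 3 among the lowest. The change was -2.26 at 1 h (SE 0.38, 4.77-fold lower, adjusted p = 1.19e-06), -1.84 at 3 h (adjusted p = 3.11e-05), -2.68 at 8 h (6.42-fold lower, adjusted p = 9.34e-09), -1.25 at 32 h (adjusted p = 0.0036) and -1.69 at 48 h (adjusted p = 9.78e-05). Of all genes 8.64%, 13.3%, 12.7%, 11.4% and 13.0% were called lower at these 5 times. At 20 h it was -0.90 (adjusted p = 0.0336), under the threshold of 1, with an SD of 2.14 among the salt arrays. It was called without salt 20 h replicate 1 (-1.19) or replicate 2 (-1.80), and after median centring (-1.08), whereas without replicate 3 it turned to 0.28 (adjusted p = 0.482). The 48 h call rested on salt 48 h replicate 1, without which the change was -0.97 (adjusted p = 0.035). The 32 h call was lost when only the 24 endodermis arrays were fitted (adjusted p = 0.0731).

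Other markers moved in the same endodermis arrays. AT1G09750 lay between 2.98 and 4.77 over the 18 salt arrays, against 5.27 to 6.17 over the 6 standard arrays, while AT1G62500 stayed between 2.75 and 3.46 in salt and 2.84 and 3.16 in standard medium. AT1G62510 read 6.08, 7.44 and 7.29 at 1 h of salt, 5.05, 5.84 and 3.64 at 20 h, and 4.39, 7.19 and 7.46 at 48 h, against 9.10 to 10.1 over the 6 standard arrays, and between 3.37 and 5.63 at 3, 8 and 32 h. The array with the lowest SWEET11 at 20 h and at 48 h was also the lowest for AT1G62510, AT1G09750, EXPA7 and EXPA18. The same arrays were the highest for GSO1, which read 10.4, 10.3 and 10.7 at 20 h and 10.4, 9.4 and 9.3 at 48 h. For LHW and AT1G62500 they were not the lowest. The root hair genes also read low in the salt endodermis. EXPA7 lay between 3.78 and 9.10 in salt, against 8.18 to 10.1 in standard medium, and EXPA18 between 3.85 and 8.00, against 6.65 to 9.19. GSO1, the endodermis marker, lay between 9.31 and 11.4 in salt, against 10.2 to 10.4, and LHW between 4.12 and 6.25, against 4.16 to 4.78. The 3′ minus 5′ difference of the GAPDH control probe sets, a sign of RNA quality, was 1.43 ± 0.07 in endodermis at 1 h of salt, against 0.44 ± 0.21 at standard 1 h and 0.51 ± 0.07 at standard 48 h (SD, n = 3). It was 0.85 ± 0.04 at 3 h, 0.89 ± 0.21 at 8 h, 0.54 ± 0.20 at 20 h, 0.45 ± 0.20 at 32 h and 0.71 ± 0.10 at 48 h. The actin control differed less at 1 h of salt, with 3.44 ± 0.08, against 3.39 ± 0.16 at standard 1 h and 3.56 ± 0.11 at standard 48 h. So did the ubiquitin control, with 1.17 ± 0.02, against 0.96 ± 0.08 and 1.05 ± 0.06. The part of these in the SWEET11 change was not tested.

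In the cortex and stele the SWEET11 salt change depended on the standard time. In the cortex it measured 4.89, 5.29 and 5.03 at 1 h of salt, 4.64, 4.63 and 4.84 at 3 h, and 4.01, 4.30 and 4.10 at 8 h. It measured 5.25, 5.27 and 4.98 at 20 h, 4.46, 4.85 and 5.03 at 32 h, and 5.44, 4.91 and 5.11 at 48 h, against 5.42, 5.14 and 5.20 at standard 1 h and 7.29, 7.21 and 6.89 at standard 48 h. All 18 salt arrays lay more than 1 log2 unit below the standard 48 h arrays, and those at 1, 20 and 48 h overlapped with the standard 1 h arrays. Against the mean of both standard groups SWEET11 was lower at all 6 times, by -1.12, -1.49, -2.05, -1.03, -1.41 and -1.04 in time order (SE 0.38, adjusted p of 5.71e-06 at 8 h to 0.0165 at 20 h). Of all genes 6.81%, 3.32%, 8.89%, 9.86%, 11.1% and 9.78% were called lower there. Against standard 1 h alone only 8 h was called (-1.12, adjusted p = 0.0302), and the others were -0.19, -0.55, -0.09, -0.47 and -0.10 at 1, 3, 20, 32 and 48 h. Against standard 48 h alone all 6 were called, between -1.97 and -2.99. The 1, 20 and 48 h calls against both groups were also lost without 1 of the cortex arrays (-1.04, adjusted p = 0.06, without salt 1 h replicate 1, -0.94 without salt 20 h replicate 3 and -0.92 without salt 48 h replicate 2, and for 20 and 48 h -0.987 to -0.997 without replicate 1 of either standard group).

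In the same cortex arrays AT1G62510 lay between 7.53 and 9.66 over the 18 salt arrays, against 10.1 to 10.6 over the 6 standard arrays, and AT1G09750 between 5.15 and 6.97, against 6.21 to 8.47. EXPA7 lay between 6.80 and 8.66 in salt, against 8.97 to 9.21, EXPA18 between 7.07 and 8.61, against 8.05 to 8.64, and GSO1 between 6.76 and 9.10, against 8.34 to 9.07. LHW lay between 4.33 and 5.46, against 4.27 to 4.78. The part of these markers in the SWEET1 and SWEET11 changes was not tested.

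In the stele SWEET11 measured 9.07, 8.56 and 8.70 at 1 h of salt, 7.89, 7.92 and 7.76 at 3 h, and 6.13, 6.08 and 5.71 at 8 h. It measured 6.54, 7.68 and 6.64 at 20 h, 8.06, 7.83 and 7.47 at 32 h, and 8.20, 8.57 and 7.32 at 48 h, against 5.97, 6.33 and 6.96 at standard 1 h and 9.39, 8.10 and 9.04 at standard 48 h. The salt levels were lowest at 8 h, and those at 1, 3, 32 and 48 h lay above all standard 1 h arrays. Against the mean of both standard groups the change was 1.15 at 1 h (SE 0.38, adjusted p = 0.00968) and -1.66 at 8 h (3.16-fold lower, adjusted p = 0.000168), where 4.22% of genes were called higher and 9.35% lower, and no other time was called. Against standard 1 h alone it was higher at 1, 3, 32 and 48 h (2.36, 1.43, 1.37 and 1.61, adjusted p of 7.7e-06 to 0.00651), and 8 h was -0.45 and not called. Against standard 48 h alone it was lower at 8, 20 and 32 h (-2.87, -1.89 and -1.06, adjusted p of 1.69e-07 to 0.0396), and 1 h was -0.066 (adjusted p = 0.927). The direction of the 1 h change therefore held only against standard 1 h, the group of the same duration. The call against both groups was also lost without salt 1 h replicate 1 (0.998, adjusted p = 0.0639) or standard 48 h replicate 2 (0.96, adjusted p = 0.0389). The GAPDH 3′ minus 5′ difference was 0.95 ± 0.46 in stele at 1 h of salt and 0.15 ± 0.04 at 8 h, against 0.31 ± 0.16 at standard 1 h and 0.61 ± 0.10 at standard 48 h. For actin it was 3.74 ± 0.19 and 3.66 ± 0.14, against 3.32 ± 0.42 and 3.54 ± 0.22. For ubiquitin it was 1.06 ± 0.08 and 1.17 ± 0.14, against 1.14 ± 0.05 and 1.12 ± 0.15. The part of RNA quality was not tested.

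Markers moved in the stele arrays as well. AT1G62510 measured 5.87, 6.46 and 5.86 at 1 h of salt and 3.01, 3.29 and 3.40 at 8 h, where SWEET11 was lowest too, against 7.67 to 8.86 over the 6 standard arrays, and it lay between 3.64 and 4.71 at the other salt times. GSO1 lay between 6.81 and 8.88 in salt, against 8.05 to 9.84, and LHW between 4.77 and 6.25, against 4.10 to 5.50. EXPA7 lay between 6.78 and 10.3, against 9.38 to 10.4, EXPA18 between 6.41 and 10.5, against 8.78 to 10.3, and AT1G09750 between 2.63 and 3.44, against 3.07 to 3.76. Their part in the changes of the 4 members in the stele was not tested.

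**Figure D2:**
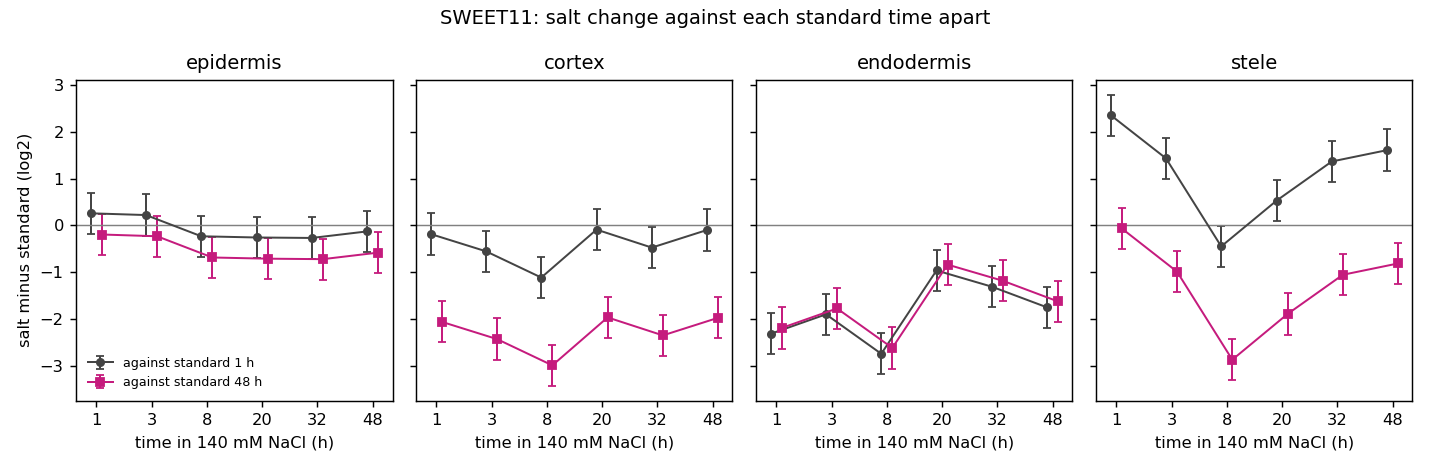
SWEET11 salt change on the log2 scale (vertical axis) by time in 140 mM NaCl in hours (horizontal axis), with 1 panel per cell type, against standard 1 h alone (grey circles) and standard 48 h alone (magenta squares). Bars are the SE of the fit, and each point compares 3 salt with 3 standard arrays. The series lie on each other in the endodermis and about 1.88 and 2.42 apart in cortex and stele, the difference between the standard groups.

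Where salt and standard medium had the same duration, 7 of 32 member comparisons were called, where 18.3% of all gene comparisons were. At 1 h, SWEET1 was higher in the salt cortex by 1.90 (3.73-fold, adjusted p = 1.13e-12), where 4.27% of genes were called higher. In the stele at 1 h, where 6.83% were, SWEET11 was higher by 2.36 (5.13-fold, adjusted p = 7.7e-06). SWEET14 differed by 1.50 and SWEET4 by 2.11 there. Both values are descriptions, since these genes were tested only through salt stele groups. SWEET11 was lower in the endodermis at 1 h (-2.32, 4.99-fold lower, adjusted p = 1.67e-05), where 8.06% of genes were called lower. At 48 h it was lower in the cortex (-1.98, 3.93-fold lower, adjusted p = 0.00011) and endodermis (-1.63, 3.09-fold lower, adjusted p = 0.00108), where 9.61% and 13.9% were. The endodermis difference at 48 h was -0.91 (adjusted p = 0.0805) without salt replicate 1. SWEET1 in the cortex at 48 h measured 6.62, 6.80 and 5.86 in salt, against 5.41, 5.36 and 5.66 in standard medium, and 0.94 missed the size threshold. It was called without replicate 3 of either group (1.23 without salt replicate 3 and 1.04 without standard replicate 3). SWEET11 in the stele at 48 h was at -0.81 (adjusted p = 0.108), and at -1.18 (adjusted p = 0.038) without standard 48 h replicate 2.

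The salt responses of the members were then compared among the 4 cell types by a moderated F test at each time. Of 24 member comparisons 15 were called, in which the changes spanned at least 1 log2 unit, where 28.5% of all gene comparisons were. Of these calls 2 were for SWEET4 and 5 for SWEET14. SWEET4 was tested only through stele at 1 and 3 h of salt and SWEET14 only through stele at 8 h, so all their calls here are descriptions. At 1 h all 4 members were called, where 21.4% of all genes were. SWEET11 had the widest span, 3.40 between a rise in the stele and a fall in the endodermis (adjusted p = 4.28e-06), followed by SWEET4 with 2.22, SWEET1 with 2.18 and SWEET14 with 1.68. At 3 h the 4 members were called again, with spans of 1.34 to 2.06, where 34.5% of genes were. At 8 h SWEET1 (1.40), SWEET11 (2.22) and SWEET14 (2.23) were called, where 28.1% were. At 20 h only SWEET14 was (1.68, adjusted p = 2.29e-06), where 30.5% were. At 32 h SWEET11 (1.57, adjusted p = 0.0334) and SWEET14 (1.04, adjusted p = 0.00735) were called, where 29.4% were, and at 48 h SWEET11 (2.09, adjusted p = 0.00526), where 26.8% were. The late SWEET11 differences depend on the standard time, with 1.63 at 32 h (adjusted p = 0.0988) and 1.39 at 48 h (adjusted p = 0.151) against standard 48 h alone, and 2.68 and 3.36, both called, against standard 1 h alone. At 32 h SWEET11 was also lost without any 1 of 5 arrays (adjusted p of up to 0.0857), and SWEET14 fell to 0.92 (adjusted p = 0.0551) against standard 1 h alone and to 0.93 after quantile normalization. With values under 4 set to 4, SWEET14 spanned 0.78, 0.49, 0.76 and 0.14 at 1, 3, 20 and 32 h and kept only its 8 h call.

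Among the 6 salt times of a cell type, independent of any standard group, 7 of 16 member comparisons changed, where 26.4% of all gene comparisons did. Of these calls 1 was for SWEET4 and 2 for SWEET14. In the cortex SWEET1 spanned 2.55 between 1 h and 20 h (adjusted p = 2.81e-19), where 26.5% of genes were called. In the stele all 4 members were called, where 21.9% of genes were, with spans of 2.81 for SWEET11 between 1 h and 8 h (adjusted p = 3.63e-06), 2.37 for SWEET4, 1.65 for SWEET14 and 1.30 for SWEET1. The bright groups of SWEET4 and SWEET14 in that test are those through which they were tested. All their calls over salt times are descriptions, also in the endodermis, where SWEET14 means were at most 4.37. In the endodermis SWEET11 (1.78, adjusted p = 0.00341) and SWEET14 (1.03, adjusted p = 0.00145) were called, where 30.3% were. Both were lost when only the 24 endodermis arrays were fitted (adjusted p = 0.19 and 0.0547). Without salt 20 h replicate 3 the spans were 2.96 for SWEET11 and 1.57 for SWEET14. SWEET14 there also fell under 1 after quantile normalization (0.93), median centring (0.93) or flooring at 4 (0.60), and without salt 20 h replicate 1 or 2 or salt 48 h replicate 1 or 3 (0.81 to 0.99). SWEET4 in the cortex spanned 0.97 (adjusted p = 1.51e-07), and 1.11 after median centring, 1.01 without salt 1 h replicate 2 and 1.05 without salt 32 h replicate 2. SWEET11 in the cortex, with its lowest mean of 4.14 ± 0.15 at 8 h and its highest of 5.16 ± 0.16 at 20 h (SD, n = 3), was not called (adjusted p = 0.224), but it was when only the 24 cortex arrays were fitted (adjusted p = 3.59e-06).

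The other SWEET genes tested were SWEET2, SWEET3, SWEET15 (listed as SAG29), SWEET16 and SWEET17. In their 120 salt comparisons 18 were higher, 24 lower and 78 not called, with a median change of -0.23, against 0.071 over all tested genes, of whose comparisons 9.25% were higher and 9.80% lower. SAG29, a sucrose carrier named for its rise in senescing leaves, was higher in 13 of 24 comparisons and lower in none. All its standard group means lay between 4.03 and 4.48, so it was tested only through salt groups. These 13 of the 18 higher calls are therefore a description. In the cortex at 3 h of salt SAG29 measured 6.23, 6.40 and 6.23, against 4.03, 4.04 and 4.10 at standard 1 h and 4.40, 4.11 and 4.14 at standard 48 h, a change of 2.15 (SE 0.19) without overlap. SWEET16 and SWEET17 carry sugars across the vacuole membrane. SWEET16 was lower in 8 comparisons and higher in 1, at -2.44 in the stele at 8 h (adjusted p = 2.61e-15), where it measured 4.12, 4.05 and 3.99, against 5.98, 5.59 and 5.9995 at standard 1 h and 7.67, 6.15 and 7.57 at standard 48 h. Its exception was the cortex at 48 h, named after its value was seen, with 8.22, 8.21 and 8.38, against 5.97, 5.87 and 5.75 at standard 1 h and 6.12, 6.54 and 6.50 at standard 48 h, a change of 2.14 (adjusted p = 6.38e-13). SWEET17 was lower in 4 comparisons and higher in 1. SWEET2, a glucose carrier of the root vacuole, was higher in 3 and lower in 1, with 8.55, 8.54 and 8.48 in the cortex at 1 h of salt, against 6.38, 6.30 and 6.30 at standard 1 h and 7.18, 7.41 and 7.63 at standard 48 h (1.66, adjusted p = 2.98e-08). SWEET3 was lower in 11 and higher in none. Only stele standard 48 h had a mean of at least 5 for it (5.81), so it was tested through that group alone and its values are a description. In the stele it measured 2.80, 2.86 and 3.26 at 8 h of salt (-1.71), against 3.55, 3.62 and 3.51 at standard 1 h and 5.70, 5.74 and 5.98 at standard 48 h, so most of that difference lies toward standard 48 h. Like SWEET11, SWEET16 was higher at standard 48 h than at standard 1 h in the stele (1.27, adjusted p = 9.78e-05). At 1 h of salt in the stele SAG29 was higher along with the 4 members, where 4.22% of all genes were. SWEET4, SWEET14 and SAG29 were tested only through salt groups where they were bright, so this is no count over the family.

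**Figure D3:**
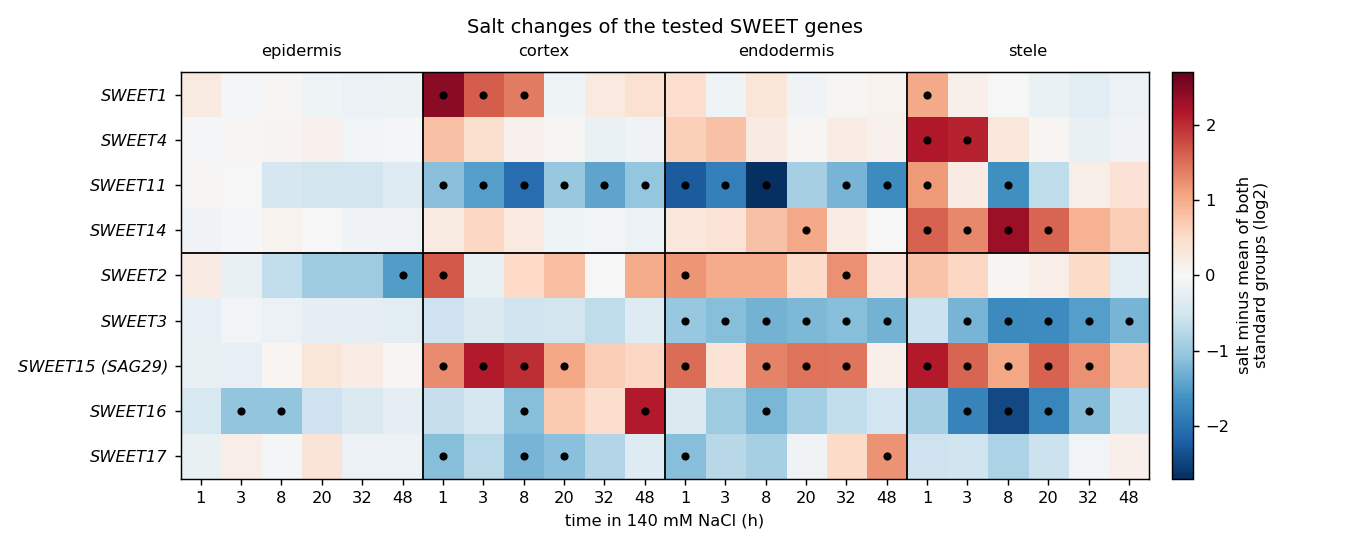
Salt minus the mean of both standard groups on the log2 scale (colour, red for higher and blue for lower in salt) for the 9 tested SWEET genes (rows), by cell type and time in 140 mM NaCl in hours (columns). Dots mark called changes, and the line parts the 4 members from the other 5 genes. SWEET11 is the member with lower calls, in cortex, endodermis and stele, and SAG29 and SWEET3 move in 1 direction each.

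Other genes that handle sugars were taken from lists fixed by gene code. Over all tested genes, 9.25% of salt comparisons were called higher and 9.80% lower. Of 8 vacuolar sugar carriers 3 were tested, with 17 higher and 8 lower of 72 comparisons and a median change of 0.042. TMT2, which loads hexoses into the vacuole, was higher by 1.77 in the epidermis at 3 h (adjusted p = 2e-13) and SFP1 by 1.75 in the cortex at 48 h (adjusted p = 4.29e-08), while TMT1 was lower in the epidermis at 48 h (-1.66, adjusted p = 3.07e-11). Invertases are enzymes that split sucrose into hexoses. Of 10 genes listed under that name, whose activity was not measured, 2 were tested. Of their 48 comparisons 0 were higher and 21 lower, with a median change of -0.79. The vacuolar invertase gene AT1G62660 was lower in the endodermis at 8 h (-1.83, adjusted p = 2.88e-13), and the gene listed as cwINV6 in the epidermis at 20 h (-1.61, adjusted p = 3.96e-14). Among the standard groups, only stele at 1 h had a mean of at least 5 for cwINV6 (5.13). Its epidermis means, 3.23 in salt and 4.84 in standard medium, lay under that level, so this fall is a description. The other lower calls of cwINV6 among the 21, and its part in the median change, are descriptions too. The 1 polyol carrier tested, AT2G20780, was called in none of 24. None of the 14 STP monosaccharide symporters was tested, 4 having a single-gene probe set, and the sucrose symporters and sucrose synthases are not analysed here.

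The members did not share 1 pattern across the 32 group means, which share arrays and normalization, so the following correlations are descriptions. Pearson's r between members ran from -0.11 (SWEET1 and SWEET11) to 0.49 (SWEET4 and SWEET14). The 3 tested genes most like SWEET1 were HPR (0.91), AT5G08050 (0.88) and ndhK (0.88). For SWEET11 they were AT2G16990 (0.95), the subtilase gene ATSBT5.2 (0.94) and AT1G31050 (0.94). For SWEET4 they were AT3G22550 (0.79), AT4G31830 (0.79) and the beta-glucosidase gene BGLU24 (0.73), and for SWEET14 AT3G46110 (0.84), AT5G22530 (0.83) and AT1G12200, listed as FMO (0.81). ATSBT5.2 was highest in stele at standard 48 h (8.86), as SWEET11 was, and lowest in epidermis at 8 h of salt (2.84).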

How the data were processed

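Transcript levels were measured on 96 ATH1 arrays in 32 groups of 3. The deposited values are log2 values that the authors made with GCRMA, and their processing notes list GCRMA and Affymetrix Expression Console without versions. They were used without further scaling. Array precision is limited by the number of arrays and by background, for which no calls were used. Of 22810 probe sets, 13513 pair with 1 gene in the platform annotation; 503 with several, 8730 not listed and 64 controls were left out. For a gene with several probe sets the brightest was kept (157 left out). Symbols come from the TAIR10.1 gene table (13286 of 13356 genes matched), used for names only.

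limma 3.58.1 in R 4.3.3 fitted 1 mean per group over all 96 arrays (64 residual degrees of freedom) with eBayes, two-sided, with Benjamini-Hochberg adjustment over 7281 genes per comparison. Calls needed an adjusted p under 0.05 and a difference, or for F tests a range, of at least 1. The fit was tested on simulated data. The members and gene lists were chosen with earlier results of these data known. Named are the 4 members, the 3 genes most correlated with each, and from each list up to 4 genes with their largest called change. Arrays of the same replicate number within a cell type did not deviate together (median correlations of -0.02 to 0.03, single pairs of -0.47 to 0.61), so the numbers were not taken to pair arrays. Alternatives were each standard group as reference, quantile normalization, median centring, other filters, a floor at 4, fits by cell type, averaged probe sets, trended robust eBayes, a replicate block and leaving out each array. Leaving out 3 poorly agreeing arrays was added after seeing the data.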

Additional observations from a re-analysis of the deposited data

Results flagged for a closer look

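Each of the following is a difference of salt responses, or of change in standard medium, among the 4 cell types that passed the moderated F test. The value is the span of the changes on the log2 scale, and what sets the cell types apart was not tested. At 1 h of salt the spans were 2.22 for SWEET4 (adjusted p = 8.23e-15), 3.40 for SWEET11 (4.28e-06), 1.68 for SWEET14 (3.08e-05) and 2.18 for SWEET1 (5.07e-11). At 3 h they were 2.05 for SWEET4 (1.09e-14), 2.06 for SWEET11 (0.000702), 1.34 for SWEET14 (0.00109) and 1.76 for SWEET1 (3.02e-09). At 8 h they were 2.22 for SWEET11 (0.00312), 2.23 for SWEET14 (6.74e-09) and 1.40 for SWEET1 (1.64e-06). At 20 h SWEET14 spanned 1.68 (2.29e-06). At 32 h SWEET11 spanned 1.57 (0.0334) and SWEET14 1.04 (0.00735), and at 48 h SWEET11 spanned 2.09 (0.00526). The change of SWEET11 between standard 48 h and standard 1 h spanned 2.55 (0.00572), a test added after its values were seen. SWEET4 and SWEET14 were tested only because salt stele groups were bright, SWEET4 through 1 and 3 h and SWEET14 through 8 h, so their spans describe these arrays and support nothing. With values under 4 set to 4, SWEET14 spanned 0.78, 0.49, 0.76 and 0.14 at 1, 3, 20 and 32 h.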

How the results depend on the processing

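Of the results followed here, the salt change of SWEET11 in the stele turned its direction with the standard group. It was -0.066 at 1 h and -1.06 at 32 h against standard 48 h alone, where the mean of both groups gave 1.15 and 0.16. At 3 and 48 h it was -0.99 and -0.81 against standard 48 h alone, and 0.22 and 0.40 against both groups. At 20 h it was 0.53 against standard 1 h alone and -0.68 against both groups. None of these values at 3, 20 and 48 h was called. With a filter at a group mean of 6 in place of 5, SWEET4 and SWEET14 are no longer tested, and calls of differing responses drop to 8 and of changes over salt times to 4, against 15 and 7. No other count moved by over 1.5 times. The salt calls numbered 24, against 18 with standard 1 h and 27 with standard 48 h as the only reference, and 20 with values under 4 set to 4, where SWEET14 kept only stele at 8 h. With 1 array left out, counts ran from 22 to 25 (salt), 6 to 8 (same duration), 2 to 3 (standard times), 12 to 14 (pairs of cell types), 14 to 15 (differing responses) and 6 to 8 (salt times). Without endodermis salt 20 h replicate 3 the SWEET11 change there was 0.28, against -0.90 with it. With a replicate block within each cell type, the counts stayed at 24, 7, 3 and 7 for salt, same duration, standard times and salt times, and the block changed no call. It was not run between cell types, which have separate reporter lines. Under all alternatives other than leaving out 1 array in turn, single results stayed called or stayed uncalled in 795 cases. They lost the call in 40, gained it in 11 and turned direction in 2. Direction was not compared where a result was called in neither fit. The limits are that 3 arrays a group share a spread pooled over all arrays, that most values of SWEET4 and SWEET14 lie near an unknown background, and that only 1 h and 48 h have standard medium of the same duration.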
